A study of Mus musculus with 19 samples.

Results

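Whole brains of 10 mouse embryos at E13.5 were compared by RNA sequencing, 5 heterozygous for the MommeD30 allele of Wiz (Wiz MommeD30/+) and 5 wildtype (Wiz+/+). They were chosen by their labels, as all samples of E13.5 brain, and make up 10 of the 19 samples of the series and 10 of its 16 RNA samples. The study asked which genes respond when 1 copy of Wiz is mutated, and the other RNA samples were cerebellums of males at 56 days post partum, 3 of each genotype. Each genotype had 3 male and 2 female brains, and each library came from the polyA RNA of a single brain.

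MommeD30 came from a chemical mutagenesis screen for dominant modifiers of transgene silencing. All of the mice were of a line called Line3, on an FVB/NJ inbred background (FVB in the labels), that carries a multicopy GFP transgene driven by elements of the human α-globin locus. Wiz+/+ and Wiz MommeD30/+ embryos came from crosses between heterozygotes within that line, so both groups shared the transgene. Litters are not given in the labels, embryos were sexed by PCR, and E0.5 was the day on which a vaginal plug was found. A heterozygous embryo keeps a normal Wiz allele, so these data describe a reduction of Wiz in the whole brain and not its loss.

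WIZ is a nuclear protein with widely spaced zinc fingers that joins the complex of the histone methyltransferases G9a (Ehmt2) and GLP (Ehmt1). That complex places mono- and dimethylation on lysine 9 of histone H3, marks of silent genes, and WIZ has also been found with CTCF and cohesin, the proteins that hold the bases of chromatin loops. G9a and GLP keep meiotic genes and some repeats off in body cells, and in brain the family is best known through the intellectual disability that loss of 1 copy of human EHMT1 causes.

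The 10 libraries held 16386029 to 50459755 counts on genes, with every library other than male Wiz+/+ replicate 2 at or above 34185084. Normalisation factors lay between 0.9955 and 1.006 (TMM method), and 16977 genes were tested. Levels are given below as CPM, read counts scaled to 1 common library size after that normalisation, and a change is a log2 fold change of Wiz MommeD30/+ over Wiz+/+, fitted by edgeR over all 10 brains with sex as a covariate. A gene was called when its p, adjusted over all genes tested, was at most 0.05. The labelled tissue was checked against its markers. All 24 genes of a neuron list and all 20 genes of a neural progenitor list were detected, with summed levels of 10700 to 12300 CPM and 2970 to 3340 CPM, whereas the summed level of 20 skeletal muscle genes was 19.2 to 24.6 CPM. Female Wiz+/+ replicate 2 stood apart, with the lowest summed level of cell cycle genes (2708 CPM, the other 9 brains 3289 to 3944) and the highest of neuron genes, and counts are therefore also given without it.

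Wiz itself, the mutated gene, was lower in every heterozygous brain. It stood at 183, 201 and 188 CPM in males and 185 and 194 CPM in females in Wiz+/+, and at 118, 126 and 123 CPM in males and 129 and 127 CPM in females in Wiz MommeD30/+. The 2 genotypes did not overlap, with means of 190.2 ± 7.29 CPM and 125 ± 4.14 CPM (SD, n = 5 each). The labels of all 10 libraries thus matched their Wiz level (log2 fold change -0.61, standard error 0.0318, adjusted p = 3.08e-07 by edgeR). The gene lies on GRCm38 chromosome 17, 32354055 to 32389439. Of the other 3 members of the G9a and GLP complex list, none was called (0.483% of all genes were), and the median log2 fold change of the 4 was 0.01.

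Few genes changed, and the larger changes were mostly decreases. Of the 16977 genes tested, 82 (0.483%) were called, 57 lower (0.336%) and 25 higher (0.147%). The called genes were not the abundant ones: the median level of those called lower was 10.2 CPM and of those called higher 8.5 CPM, against 20.5 CPM over all genes tested. Decreases had a median log2 fold change of -0.75 and increases one of 0.51, and 11 decreases and 3 increases were larger than 1. With the study's fold limits added (under 0.7 or over 1.3), 60 genes (0.353%) remained, 43 of them lower. In 75 of the 82 genes the values of the 5 Wiz MommeD30/+ brains did not overlap those of the 5 Wiz+/+ brains, as was so for 284 of all genes tested (1.67%).

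Most fitted changes were small. Over all genes tested the median log2 fold change was 0.004, with quartiles at -0.05 and 0.05, and 52% of genes were above 0. The median standard error of a fold change was 0.055, so a shift of that size cannot be resolved for a typical gene. At an unadjusted p under 0.05, 1109 genes were lower (6.53%) and 939 higher (5.53%), 12.1% together. Without female Wiz+/+ replicate 2, the brain that stood apart, 68 genes were called, 49 lower and 19 higher, and without the shallow male Wiz+/+ replicate 2 the number was 70, 54 lower and 16 higher. The lowest number was 50, 41 lower and 9 higher, without male Wiz+/+ replicate 1, and the increases also fell to 11, 13 and 14 without male Wiz MommeD30/+ replicate 1 or 2 or female Wiz MommeD30/+ replicate 2. These p-values measure the spread between the brains sampled.

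When brains were left out 1 at a time, 41 of the 57 and 7 of the 25 were called in all 10 of those fits. The 7 increases were Akr1cl, Ifitm2, Gstm7, Slc7a3, Anxa1, Oas3 and Heph. Of the other genes described below, Slc43a3, Pisd and Zfp110 were called in 9 of the 10 fits, Dnah1, Ogdhl, Pisd-ps2 and Doc2b in 8, Tecta and Pcdhb2 in 7, Bcan, Cdk5rap2 and 2810429I04Rik in 6 and 4930447C04Rik in 5. Sult4a1, Pcdha11 and Dnah7b were called in 4, H2-Eb2, Slfn9 and Csdc2 in 3, Prkg2, Amot and Zfp141 in 2, and Ifit2, Mr1, Map10, Ooep and Lipo4 in 1.

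**Figure D1:**
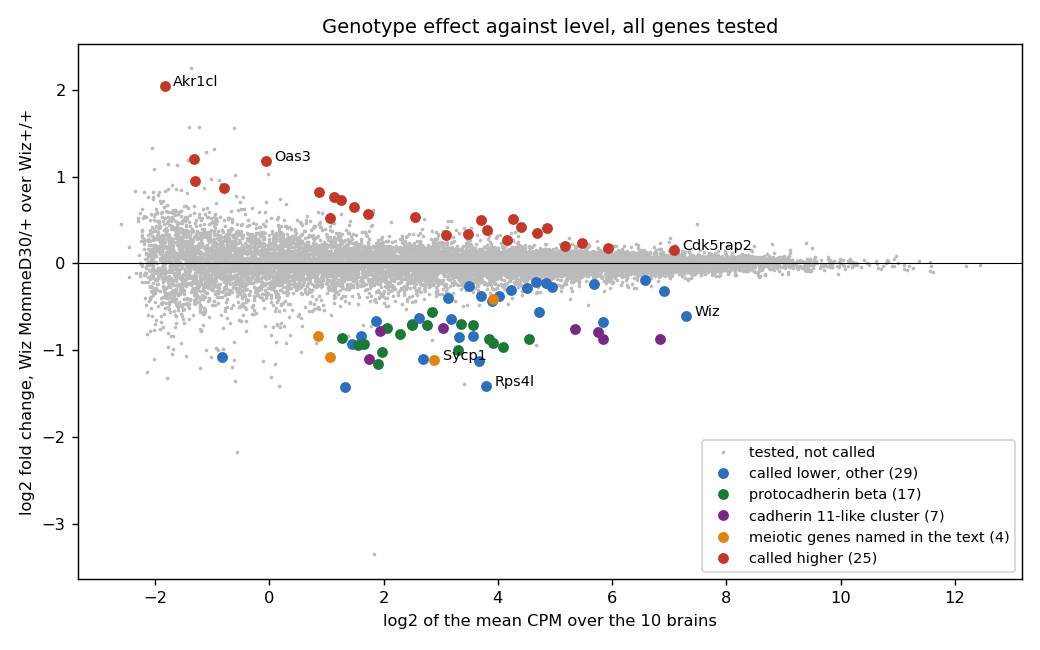
Genotype effect in E13.5 brain against level: each point is 1 of the 16977 genes tested, with the log2 of its mean CPM over the 10 brains on the x axis and its log2 fold change (Wiz MommeD30/+ over Wiz+/+) on the y axis. Coloured points are the 57 genes called lower and the 25 called higher, and the protocadherin beta and cadherin 11-like genes found by symbol make up 24 of those called lower.

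Beyond Wiz, at least 24 of the 57 decreases came from clusters that the study itself had pointed to on these samples, which is not independent evidence of their direction. The cadherin 11-like cluster is a set of cadherin 11 pseudogene copies on chromosome 8, with 1 copy placed elsewhere in the assembly. Of its 9 genes named by the study, 7 were found by symbol. All 7 were called lower, with a median log2 fold change of -0.79. The rest had no match by symbol. Of 143 tested identifiers without a symbol, 3 were called, all lower, and whether they include those genes was not tested. Gm21092, with the smallest p of any gene, had 152, 152 and 147 CPM in males and 143 and 146 CPM in females in Wiz+/+, and 84.1, 87.2 and 81.6 CPM in males and 73.5 and 79.1 CPM in females in Wiz MommeD30/+. Its groups were far apart (log2 fold change -0.87, standard error 0.0309, adjusted p = 6.41e-09 by edgeR). Of the protocadherin beta genes on chromosome 18, which encode cell-surface adhesion proteins that neurons use in combinations to tell themselves from their neighbours, 17 of 21 tested were called lower and 20 of 21 were lower at an unadjusted p under 0.05, with a median log2 fold change of -0.81. Pcdhb17 may stand for them, with 27.1, 30.3 and 30.2 CPM in males and 30.4 and 33.7 CPM in females in Wiz+/+ against 18.1, 15.8 and 16.4 CPM in males and 15.7 and 16.9 CPM in females in Wiz MommeD30/+, and no overlap (log2 fold change -0.87, standard error 0.0581, adjusted p = 2.43e-06 by edgeR). From the neighbouring alpha cluster, the entry named Pcdha11, which spans chromosome 18, 37005203 to 37187657, was called with a smaller decrease (log2 fold change -0.32, adjusted p = 0.0479 by edgeR). Only 2 of 36 alpha and gamma genes had an entry of their own, so most single genes of those clusters were not examined. Members of each cluster are closely similar in sequence, and the way reads over such copies were counted is not given in the sources used here, so their single values are uncertain.

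The other 32 decreases were of many kinds, and some lay in or beside those clusters. Noncoding genes at chromosome 18, 37655451 to 37661742 (3222401L13Rik) and 37746559 to 37768242, lay beyond Pcdhb22, which ends at 37524479. A long noncoding gene at chromosome 8, 19789798 to 19798548, lay among the cadherin 11-like copies. The 3 called identifiers without a symbol have no position here. Rps4l, a transcribed retrocopy of the ribosomal protein gene Rps4x on chromosome 6, 148354656 to 148355598, had 18.9, 20.1 and 18.2 CPM in males and 20.8 and 22.5 CPM in females in Wiz+/+ brains. In Wiz MommeD30/+ brains it had 7.197, 8.61 and 7.84 CPM in males and 7.92 and 6.26 CPM in females. No value of the 2 genotypes came near the other (log2 fold change -1.41, standard error 0.0841, adjusted p = 8.01e-07 by edgeR), although reads shared with its parent gene make its level uncertain. The long noncoding RNA 3222401L13Rik had the lowest fold change of all called genes (log2 fold change -1.43, adjusted p = 1.96e-05 by edgeR), with 3.13, 4.04 and 3.73 CPM in males and 3.68 and 3.75 CPM in females in Wiz+/+ against 1.56, 1.54 and 1.17 CPM in males and 1.09 and 1.38 CPM in females in Wiz MommeD30/+. Among the 383 pseudogenes tested, 9 were called, all lower (2.35%, against 0.483% of all genes). They were Rps4l, Pisd-ps1, Pisd-ps2 and 6 of the cadherin 11-like copies. Of 1450 long noncoding or unclassified genes, 7 were called, all lower (0.483%, the same share as over all genes). All 25 increases were of protein-coding genes, which made up 14967 of the 16977 genes tested and of which 0.421% were called.

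**Figure D2:**
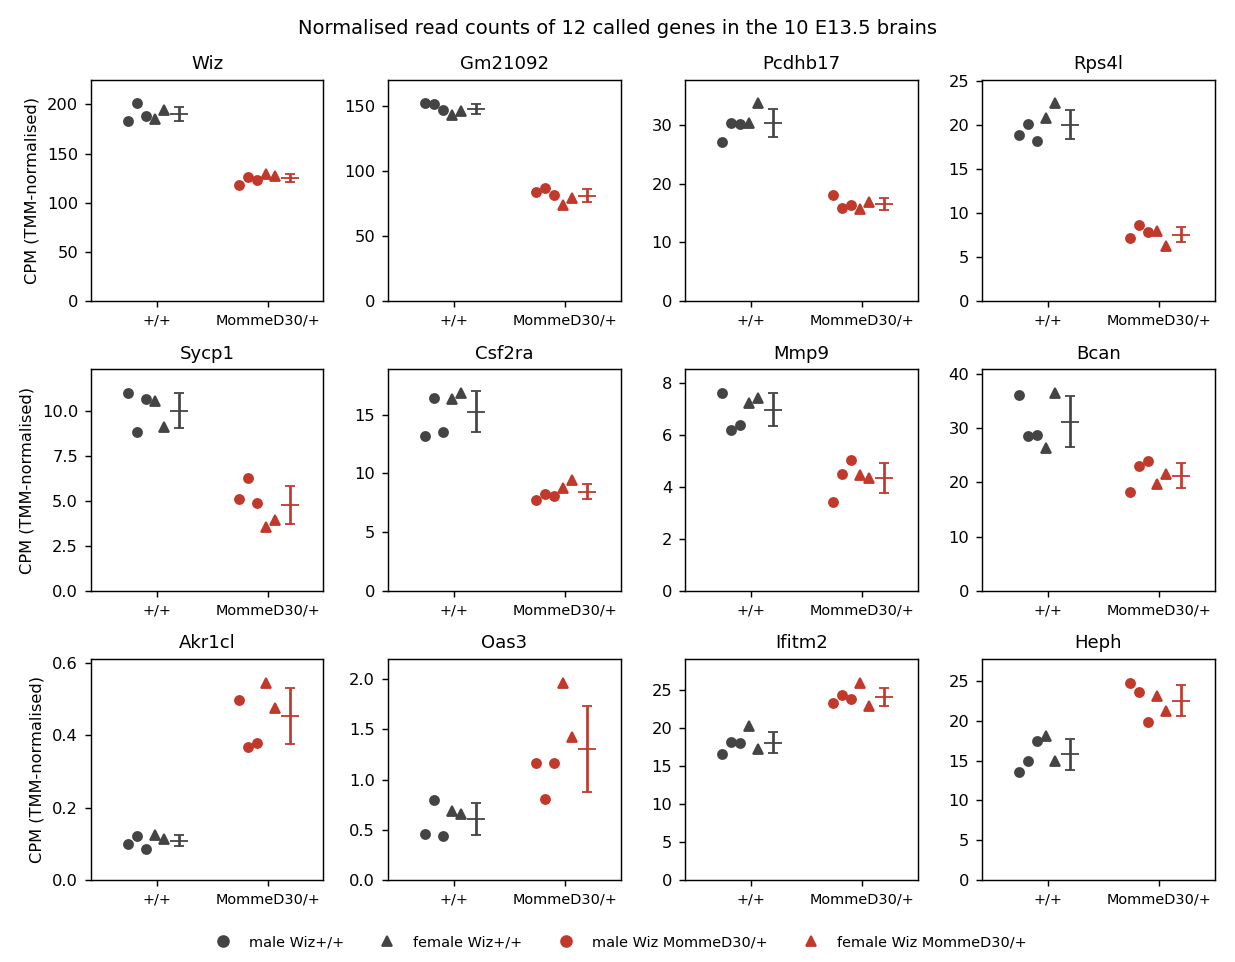
TMM-normalised CPM of 12 called genes in each of the 10 brains, with circles for males, triangles for females and bars for the mean and SD of 5. Each panel has its own y axis starting at 0. In all 12 panels the 2 genotypes do not overlap.

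Genes of meiosis, normally read in germ cells, were among the decreases. Of the 42 genes of a meiosis and germline list, 19 were expressed enough to be tested. Sycp1 and Stag3 were called lower, 2 of the 19 (0.336% of all genes were). At an unadjusted p under 0.05, 3 of the 19 were lower (15.8% against 6.53% of all genes). Of the 19, 13 had a fold change below 0, where 52% of all genes were above 0. Their median log2 fold change was -0.11 against 0.004 over all genes. Sycp1 encodes the transverse filament of the synaptonemal complex that joins paired chromosomes. It had 11.01, 8.82 and 10.7 CPM in males and 10.5 and 9.13 CPM in females in Wiz+/+, and 5.11, 6.26 and 4.91 CPM in males and 3.56 and 3.95 CPM in females in Wiz MommeD30/+. All heterozygous values lay below all wildtype ones (log2 fold change -1.11, standard error 0.107, adjusted p = 9.78e-05 by edgeR). Stag3, a cohesin subunit of meiotic chromosomes, had 17.4, 16.7 and 18.6 CPM in males and 15.7 and 17.4 CPM in females in Wiz+/+, and 14.5, 15.1 and 12.8 CPM in males and 10.3 and 12.2 CPM in females in Wiz MommeD30/+, again without overlap (log2 fold change -0.42, standard error 0.0712, adjusted p = 0.0162 by edgeR). Outside that list, and picked after their values were seen, 4930447C04Rik (Six6os1), a central element protein of the synaptonemal complex, and Ccdc36 (Iho1), required for the breaks that start meiotic recombination, were also called lower. For 4930447C04Rik the levels were 2.81, 2.02 and 3.41 CPM in males and 2.65 and 3.19 CPM in females in Wiz+/+ and 1.29, 1.52 and 1.52 CPM in males and 1.81 and 0.691 CPM in females in Wiz MommeD30/+ (log2 fold change -1.08, standard error 0.201, adjusted p = 0.0297 by edgeR). Ccdc36 had 2.32 ± 0.256 CPM in Wiz+/+ and 1.28 ± 0.107 CPM in Wiz MommeD30/+ (SD, n = 5 each) with a change of -0.83 (adjusted p = 0.00197 by edgeR).

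Promoters of meiotic genes are known for an E-box (CACGTG) and an E2F6-type element (TCCCGC) at which silencing complexes with G9a and GLP are placed, so the windows of these 4 genes are shown, each running from 250 bases before to 50 bases after the transcription start (RefSeq, GRCm38.p6). Capitals mark CACGTG and TCCCGC, searched on both strands, and the 2 motifs do not overlap.
Sycp1 promoter, chr3:102936051-102936350, minus strand: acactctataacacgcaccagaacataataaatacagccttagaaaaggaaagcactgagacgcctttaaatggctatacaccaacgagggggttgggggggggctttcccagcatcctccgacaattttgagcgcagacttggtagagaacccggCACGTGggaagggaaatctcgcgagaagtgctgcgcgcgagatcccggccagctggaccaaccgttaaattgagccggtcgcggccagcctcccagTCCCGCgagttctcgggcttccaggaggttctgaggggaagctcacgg
Stag3 promoter, chr5:138280259-138280558, plus strand: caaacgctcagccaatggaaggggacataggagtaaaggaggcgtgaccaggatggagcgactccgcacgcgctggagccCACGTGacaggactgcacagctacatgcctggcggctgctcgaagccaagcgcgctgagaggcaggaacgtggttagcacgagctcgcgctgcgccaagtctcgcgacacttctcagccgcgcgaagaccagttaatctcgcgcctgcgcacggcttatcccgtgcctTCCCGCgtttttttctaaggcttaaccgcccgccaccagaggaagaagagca
Ccdc36 promoter, chr9:108431777-108432076, minus strand: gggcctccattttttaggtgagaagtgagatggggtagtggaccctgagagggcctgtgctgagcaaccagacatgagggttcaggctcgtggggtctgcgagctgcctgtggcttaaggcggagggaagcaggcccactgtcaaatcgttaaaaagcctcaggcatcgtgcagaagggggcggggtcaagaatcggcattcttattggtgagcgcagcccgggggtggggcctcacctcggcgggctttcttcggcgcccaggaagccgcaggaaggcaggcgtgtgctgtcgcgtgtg
4930447C04Rik promoter, chr12:72917716-72918015, minus strand: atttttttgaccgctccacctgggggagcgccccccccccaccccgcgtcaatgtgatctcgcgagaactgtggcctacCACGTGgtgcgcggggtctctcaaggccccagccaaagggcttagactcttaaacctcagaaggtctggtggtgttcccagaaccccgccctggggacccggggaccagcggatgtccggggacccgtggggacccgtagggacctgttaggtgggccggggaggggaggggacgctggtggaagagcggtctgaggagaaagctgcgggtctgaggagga

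The windows of Sycp1 and Stag3 each held 1 CACGTG and 1 TCCCGC, that of 4930447C04Rik held 1 CACGTG, and that of Ccdc36 held neither. Of all 32851 windows of this length, 7.15% held CACGTG and 20% held TCCCGC, and of the 16068 windows of tested genes 9.34% and 33% did. Counted by gene, where a gene can have several windows, 11.1% of 12578 tested genes held CACGTG and 38% held TCCCGC. Only 18 of the 57 genes called lower and 19 of the 25 called higher had a window. Of the 18 genes 4 held CACGTG and 8 held TCCCGC, in 17.4% and 34.8% of their 23 windows, and of the 19 genes 2 held each. The annotation used for positions places the starts of 4930447C04Rik (72940774) and Ccdc36 (108428484) outside the windows shown, so other promoters of these genes were not examined. A match is a description of letters and was not tested as a binding site.

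Another set of decreases lay at chromosome ends or was made of copies of one gene. Csf2ra, the alpha chain of the receptor for the cytokine GM-CSF, had 13.2, 16.4 and 13.5 CPM in males and 16.3 and 16.8 CPM in females in Wiz+/+ brains, and 7.72, 8.27 and 8.07 CPM in males and 8.75 and 9.39 CPM in females in Wiz MommeD30/+ brains. The genotypes were separated by a wide gap (log2 fold change -0.84, standard error 0.0636, adjusted p = 8.16e-06 by edgeR). Crlf2, a receptor chain for the cytokine TSLP and a member of the same receptor family, was lower too (log2 fold change -0.40, adjusted p = 0.00414 by edgeR). Of the 390 tested genes within 1 Mb of the first or last annotated gene of a chromosome, 5 were called, all lower (1.28%, against 0.483% of all genes). They were Csf2ra, Samd11, Pisd-ps1, Pisd-ps2 and 2810429I04Rik. The study had already named all of these but 2810429I04Rik, on these samples, as end genes of their chromosomes, so their position is not an independent observation. Pisd, which makes phosphatidylethanolamine in mitochondria, and the transcribed copies Pisd-ps1 and Pisd-ps2 all fell. The values were a log2 fold change of -0.28 for the parent gene (adjusted p = 0.0119 by edgeR), -0.67 for Pisd-ps1 (adjusted p = 9.78e-05) and -0.44 for Pisd-ps2 (adjusted p = 0.0146). Pisd-ps1 had 69.03, 66.2 and 61.5 CPM in males and 72.7 and 81.8 CPM in females in Wiz+/+ and 35.9, 44.4 and 46.3 CPM in males and 49.6 and 44.1 CPM in females in Wiz MommeD30/+. Because these 3 genes share sequence, the counting could have split their reads. The neighbouring lipase genes Lipo3 (log2 fold change -0.93, adjusted p = 0.00197 by edgeR) and Lipo4 (log2 fold change -1.08, adjusted p = 0.0433 by edgeR) form another such pair.

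The following decreases were picked from the called genes and belong to no common list. Bcan, which encodes brevican, a proteoglycan of the matrix around neurons and glia, had 36.1, 28.5 and 28.7 CPM in males and 26.3 and 36.5 CPM in females in Wiz+/+, and 18.2, 22.95 and 23.9 CPM in males and 19.7 and 21.6 CPM in females in Wiz MommeD30/+ (log2 fold change -0.57, standard error 0.0996, adjusted p = 0.0201 by edgeR). Mmp9, a secreted protease that cuts such matrix, had 7.61, 6.19 and 6.38 CPM in males and 7.21 and 7.43 CPM in females in Wiz+/+ and 3.42, 4.48 and 5.03 CPM in males and 4.47 and 4.34 CPM in females in Wiz MommeD30/+ (log2 fold change -0.69, standard error 0.0965, adjusted p = 0.00295 by edgeR). Both genes separated the genotypes without overlap. Doc2b, a calcium sensor of vesicle release, was lower by a smaller amount (log2 fold change -0.38, adjusted p = 0.0172 by edgeR). Smaller but called decreases were seen in Sult4a1, a sulfotransferase of neurons (log2 fold change -0.24, adjusted p = 0.0271 by edgeR), in Csdc2, an RNA-binding protein with a cold-shock domain (log2 fold change -0.19, adjusted p = 0.0279 by edgeR), and in the microtubule-associated Map10 (log2 fold change -0.27, adjusted p = 0.0414 by edgeR). Lrif1, a nuclear protein that binds heterochromatin protein 1, fell by 0.29 (adjusted p = 0.0119 by edgeR), and the zinc-finger genes Zfp110 and Zfp141 each fell by 0.22 (adjusted p = 0.00978 and 0.0422 by edgeR). Of the 25 genes on the heterochromatin and DNA methylation list, which does not hold Lrif1, none was called (0.483% of all genes were). Of the 25, 22 were above 0, and the median log2 fold change was 0.04 (0.004 in male brains alone). Dnmt3b, the de novo DNA methyltransferase, had the smallest p there, at 9.46, 9.68 and 10.7 CPM in males and 10.1 and 9.76 CPM in females in Wiz+/+ and 11.9, 13.04 and 11.8 CPM in males and 11.3 and 12.6 CPM in females in Wiz MommeD30/+ (log2 fold change 0.29, adjusted p = 0.0536 by edgeR).

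Increases were fewer, and the 3 largest were in genes of low level. Akr1cl, an aldo-keto reductase gene, rose most, but it rested on few reads: 5, 2 and 3 counts in male and 6 and 5 in female Wiz+/+ brains, against 20, 15 and 13 and 25 and 22 counts in Wiz MommeD30/+ brains. The groups did not overlap (log2 fold change 2.05, standard error 0.233, adjusted p = 4.57e-04 by edgeR). All its Wiz+/+ counts were below the filter's minimum of 10, so it was tested only because of its Wiz MommeD30/+ values. Its increase and lack of overlap are therefore a description. Slc7a3, a transporter of cationic amino acids, had 1.77, 1.41 and 1.46 CPM in males and 1.68 and 1.76 CPM in females in Wiz+/+ and 2.98, 2.42 and 2.14 CPM in males and 3.36 and 2.98 CPM in females in Wiz MommeD30/+ (log2 fold change 0.76, standard error 0.116, adjusted p = 0.00652 by edgeR). Anxa1, a calcium-dependent membrane-binding protein with anti-inflammatory roles, had 1.75, 1.41 and 1.46 CPM in males and 2.14 and 2.101 CPM in females in Wiz+/+ and 2.53, 3.35 and 2.52 CPM in males and 3.16 and 3.302 CPM in females in Wiz MommeD30/+ (log2 fold change 0.73, standard error 0.112, adjusted p = 0.0073 by edgeR). Tecta, whose product is part of the tectorial membrane of the inner ear, and Ooep, known from oocytes, also rose, from means of 1.33 to 2.33 CPM and from 0.412 to 0.742 CPM (adjusted p = 0.0162 and 0.0433 by edgeR).

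Ifitm2 and Ifit2 were the called members of the interferon-induced list. Of its 27 tested genes, these 2 were called, both higher (0.147% of all genes were), and 19 had a fold change above 0 with a median of 0.05. The list as a whole did not hold one direction: its median was 0.09 in male brains alone, -0.07 in female brains alone (12 of 27 above 0) and 0.009 without female Wiz+/+ replicate 2 (16 of 27). Ifitm2, a membrane protein that limits virus entry, had 16.6, 18.2 and 18.04 CPM in males and 20.3 and 17.3 CPM in females in Wiz+/+, and 23.3, 24.4 and 23.9 CPM in males and 26.00 and 22.9 CPM in females in Wiz MommeD30/+. Every heterozygous value was above every wildtype one (log2 fold change 0.42, standard error 0.0549, adjusted p = 0.00196 by edgeR). Ifit2, which binds viral RNA, rose less (log2 fold change 0.32, adjusted p = 0.0479 by edgeR). Outside the list, and picked from the called genes, Oas3, a sensor of double-stranded RNA, had 23, 13 and 15 counts in male and 33 and 29 in female Wiz+/+ brains, and 47, 33 and 40 and 90 and 66 counts in Wiz MommeD30/+ brains (log2 fold change 1.18, adjusted p = 0.00855 by edgeR). H2-Eb2, a class II antigen-presentation gene, and Mr1, which presents vitamin metabolites to T cells, were higher too (log2 fold change 1.20, adjusted p = 0.0279 by edgeR for H2-Eb2, and log2 fold change 0.52, adjusted p = 0.0304 for Mr1), as was Slfn9 of the schlafen family (0.41, adjusted p = 0.0479 by edgeR). Of 20 microglia and macrophage genes and 15 tested erythroid genes none was called, but only 0.483% of all genes were, so those counts say little. The microglia and macrophage genes summed to 141 to 175 CPM in Wiz+/+ and 141 to 156 CPM in Wiz MommeD30/+. Their median log2 fold change was -0.05. The erythroid list summed to 770 to 1480 CPM in Wiz+/+ and 931 to 1350 CPM in Wiz MommeD30/+. Of 12 neutrophil genes, 5 were tested and none was called, but 4 of the 5 (80%, against 5.53% of all genes) were higher at an unadjusted p under 0.05. These genes lie near the filter on low counts, and Ltf passed it mostly through Wiz MommeD30/+ brains. That share can thus be too high and is only a description. The whole list summed to 3.84 to 5.91 CPM in Wiz+/+ and 4.24 to 8.42 CPM in Wiz MommeD30/+. Ltf, lactoferrin of neutrophil granules, stood at 0.139, 0 and 0.117 CPM in males and 0.0841 and 0.271 CPM in females in Wiz+/+ and 0.769, 0.832 and 0.117 CPM in males and 0.829 and 0.691 CPM in females in Wiz MommeD30/+, overlapping at male Wiz MommeD30/+ replicate 3 (log2 fold change 2.25, adjusted p = 0.0583 by edgeR). The part of such cells in the increases was not tested, and fewer cells of a type and less RNA per cell cannot be told apart in whole brain.

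The other increases spanned transport, cilia and metabolism. Heph, a copper-dependent enzyme that oxidises iron for export, had 13.5, 14.9 and 17.4 CPM in males and 18.03 and 14.9 CPM in females in Wiz+/+, and 24.7, 23.6 and 19.8 CPM in males and 23.1 and 21.2 CPM in females in Wiz MommeD30/+, without overlap (log2 fold change 0.51, standard error 0.0833, adjusted p = 0.0114 by edgeR). It was the only one of 22 tested iron-handling genes to be called. Slc43a3, a purine base transporter of blood vessels, had 9.799, 11.7 and 10.4 CPM in males and 12.9 and 9.31 CPM in females in Wiz+/+, and 14.7, 15.5 and 14.7 CPM in males and 16.5 and 14.8 CPM in females in Wiz MommeD30/+ (log2 fold change 0.50, standard error 0.0811, adjusted p = 0.0113 by edgeR), and it was the only called gene of 25 on the endothelial list, whose median log2 fold change was -0.02. Prkg2, a cyclic GMP-dependent kinase, was the only called gene of 14 on its list (log2 fold change 0.54, adjusted p = 0.0393 by edgeR). Of axonemal dynein heavy chains, which drive the beating of cilia, Dnah1 (log2 fold change 0.39, adjusted p = 0.0144 by edgeR) and Dnah7b (log2 fold change 0.26, adjusted p = 0.0191 by edgeR) rose. Several increases were small yet past the threshold: Cdk5rap2, a centrosome protein known from microcephaly, had 135, 128 and 136 CPM in males and 122 and 119 CPM in females in Wiz+/+, and 148, 145 and 144 CPM in males and 137 and 140.1 CPM in females in Wiz MommeD30/+. That change of 0.16 was the smallest called (standard error 0.0271, adjusted p = 0.0162 by edgeR). The tight-junction and Hippo-pathway protein Amot (log2 fold change 0.18, adjusted p = 0.0264 by edgeR), the mitochondrial enzyme gene Ogdhl (log2 fold change 0.20, adjusted p = 0.0131 by edgeR) and the glutathione transferase Gstm7 (log2 fold change 0.23, adjusted p = 0.00267 by edgeR) changed by similar amounts.

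Medians of most pathway lists lay near 0. The single genes above were picked for being called, so their changes cannot be set against medians over whole lists. Over 54 gene lists, 10 had any called member, and apart from the 2 clusters 44 of 52 lists had a median log2 fold change between -0.1 and 0.1. None of the genes of the Notch, Wnt, Shh, Fgf or BMP and TGF-beta signalling lists was called, nor any of 48 axon guidance genes. Only 0.483% of all genes were called, so no called member in a list of such size is near that share, here and below. At an unadjusted p under 0.05, 7 of 22 Fgf signalling genes were lower (31.8% against 6.53% of all genes) and 1 was higher, with a list median of -0.03. On the Notch list 5 of 18 were higher (27.8% against 5.53%) and none lower, with a median of 0.06, and 8 of the 48 axon guidance genes were lower (16.7%) and 3 higher. Without female Wiz+/+ replicate 2 the Fgf and Notch numbers were 5 lower and 3 higher, with medians of -0.02 and 0.02. On the Wnt, Shh and BMP and TGF-beta lists at most 1 gene in each direction had such a p. Medians of the 76 cytosolic ribosomal protein genes and the 81 tested nuclear genes of oxidative phosphorylation were -0.009 and -0.02, with 46 and 63 of them below 0.

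Cell cycle genes and neuron genes leaned in opposite directions, by small amounts that were larger in female brains. All 40 cell cycle and replication genes had a fold change above 0 (52% of all genes did), with a median of 0.10, but none was called and 5 were higher at an unadjusted p under 0.05 (12.5% against 5.53% of all genes). Mki67, the proliferation antigen, had 350.4, 363 and 391 CPM in males and 305 and 254 CPM in females in Wiz+/+, and 386, 412 and 393 CPM in males and 349.9 and 357 CPM in females in Wiz MommeD30/+ (log2 fold change 0.20, adjusted p = 0.169 by edgeR). The groups overlapped, and the lowest value was that of female Wiz+/+ replicate 2. The summed level of the list was 3521, 3849 and 3944 CPM in male and 3289 and 2708 CPM in female Wiz+/+ brains, and 3624, 3934 and 3825 CPM in male and 3765 and 3471 CPM in female Wiz MommeD30/+ brains. Fitted on male brains alone, 21 of the 40 genes were above 0 with a median of 0.005, and on female brains alone 40 of 40 with a median of 0.26. Without female Wiz+/+ replicate 2, 34 of the 40 were above 0, with a median of 0.03. The difference between the sexes was not tested for the list as a whole.

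Genes of mature neurons had fold changes mostly below 0. Of 24 neuron genes, 22 had a fold change below 0, with a median of -0.08, and 11 were lower at an unadjusted p under 0.05 (45.8% against 6.53% of all genes). None was called. Rbfox3, the nuclear NeuN antigen of neurons, had 66.3, 63.9 and 60.2 CPM in males and 56.1 and 68.8 CPM in females in Wiz+/+, and 52.5, 53.6 and 59.8 CPM in males and 55.5 and 54.1 CPM in females in Wiz MommeD30/+ (log2 fold change -0.20, adjusted p = 0.173 by edgeR). Only female Wiz+/+ replicate 1 and male Wiz MommeD30/+ replicate 3 reached into the other group's range. Of 31 synaptic vesicle and release genes, 24 were below 0 with a median of -0.09, and 14 were lower at an unadjusted p under 0.05 (45.2%).

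The glutamate and GABA receptor list had the lowest median of these neuronal lists, with 32 of 35 genes below 0, a median of -0.12, and 12 lower at an unadjusted p under 0.05 (34.3%). Grin3a, a subunit of NMDA receptors, had 48.1, 39.3 and 40.6 CPM in males and 38.8 and 51.4 CPM in females in Wiz+/+, and 34.5, 34.5 and 38.02 CPM in males and 31.6 and 36.8 CPM in females in Wiz MommeD30/+ (log2 fold change -0.32, adjusted p = 0.128 by edgeR). Its genotypes did not overlap. Gabbr2, a subunit of the metabotropic GABA receptor, had 40.9, 34.5 and 30.9 CPM in males and 38.5 and 44.7 CPM in females in Wiz+/+ and 31.4, 29.98 and 33.5 CPM in males and 31.1 and 31.6 CPM in females in Wiz MommeD30/+, with overlap (log2 fold change -0.27, adjusted p = 0.171 by edgeR). Of 32 voltage-gated channel genes, 25 were below 0, with a median of -0.08. In male brains alone the medians of the neuron, vesicle, receptor and channel lists were -0.05, -0.05, -0.08 and -0.03, each nearer to 0 than over all brains, and no member of any of them was called. Without female Wiz+/+ replicate 2 the medians were -0.06, -0.06, -0.09 and -0.04, with 4, 10, 7 and 3 genes lower at an unadjusted p under 0.05, when 4.92% of all genes were.

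**Figure D3:**
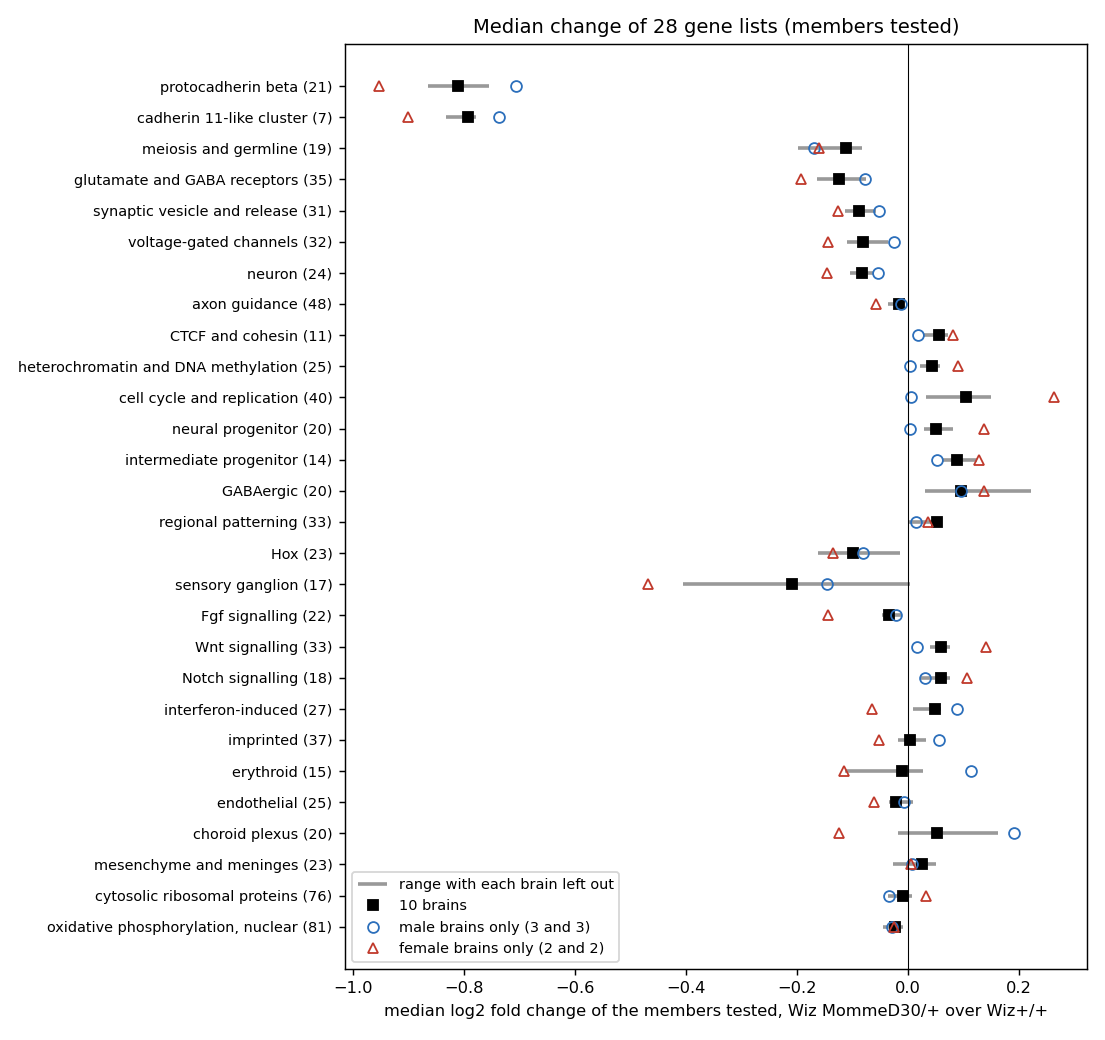
Median log2 fold change (x axis, Wiz MommeD30/+ over Wiz+/+) of the tested members of 28 gene lists, with their number in brackets, in all 10 brains (squares), in males (circles) and in females (triangles). Grey bars span the medians when each brain is left out in turn, and the cell cycle list lies at 0.10 over all brains, 0.005 in males and 0.26 in females.

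Progenitor genes gave a partial counterpart. Of 20 neural progenitor genes, 16 were above 0 with a median of 0.05, and 2 were higher at an unadjusted p under 0.05. In male brains alone 10 of the 20 were above 0, with a median of 0.004, and without female Wiz+/+ replicate 2 the numbers were 15 and 0.03. Nes, the intermediate filament of neural stem cells, had 383, 438 and 451 CPM in males and 411 and 368 CPM in females in Wiz+/+, and 514, 487 and 446 CPM in males and 472 and 475 CPM in females in Wiz MommeD30/+, overlapping only where male Wiz MommeD30/+ replicate 3 fell below male Wiz+/+ replicate 3 (log2 fold change 0.23, adjusted p = 0.0939 by edgeR). Notch1, a receptor that keeps progenitors from differentiating, had a log2 fold change of 0.11 (adjusted p = 0.154 by edgeR), with 169, 182 and 179 CPM in males and 172 and 174 CPM in females in Wiz+/+ and 184, 186 and 184 CPM in males and 196 and 195 CPM in females in Wiz MommeD30/+. On the intermediate progenitor list of 14 genes, 9 were above 0 with a median of 0.09, and on the list of 20 GABAergic genes 16 were, with a median of 0.10. For the GABAergic list, leaving out female Wiz+/+ replicate 2 gave 12 of 20 and a median of 0.03, and leaving out female Wiz+/+ replicate 1 gave a median of 0.22. For the intermediate progenitor list the median without female Wiz+/+ replicate 2 was 0.06. None of those 54 genes was called.

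Levels of caudal and neighbouring tissue genes varied between single brains. Hox genes, read in hindbrain and spinal cord, summed to 561 CPM in female Wiz+/+ replicate 2 and to 253 to 394 CPM in the other 9 brains, and sensory ganglion genes to 432 CPM in that brain and 179.5 to 346 CPM in the others. The same brain had the lowest summed level of 20 choroid plexus genes, 461 CPM, against 487 to 733 CPM in the other 9. Its part in the shifts of the cell cycle and neuron lists was tested only by leaving it out, as given above.

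**Figure D4:**
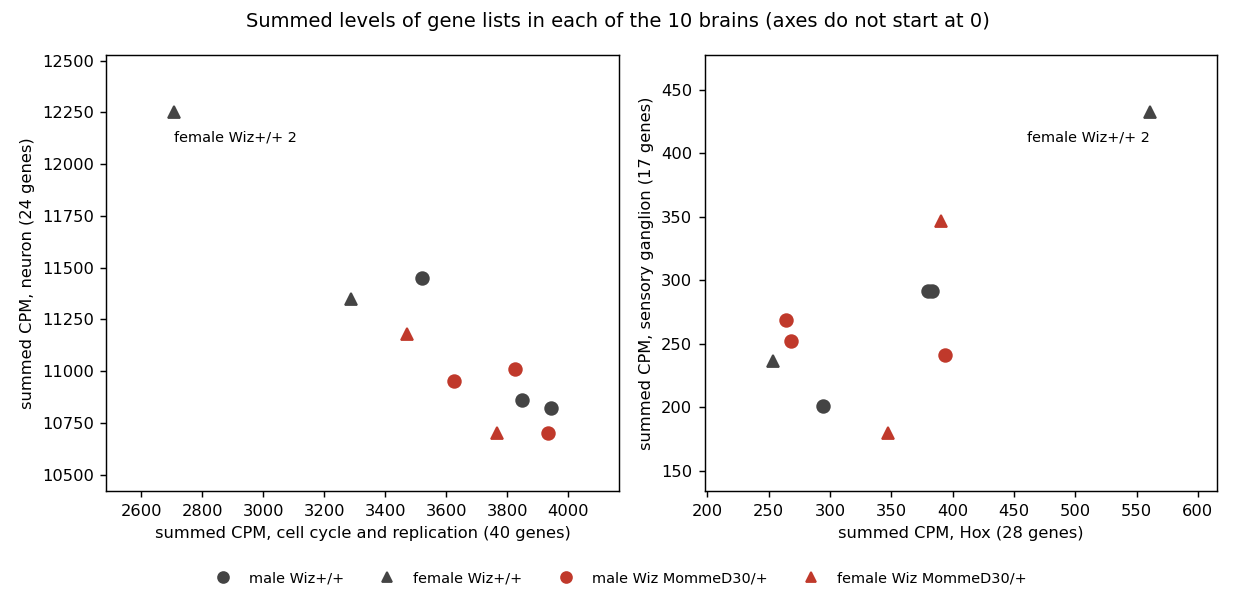
Summed CPM of gene lists in each of the 10 brains: neuron against cell cycle genes (left) and sensory ganglion against Hox genes (right), with circles for males, triangles for females, grey for Wiz+/+ and red for Wiz MommeD30/+. Female Wiz+/+ replicate 2 lies at the end of both plots, at 2708 CPM for cell cycle genes and 561 CPM for Hox genes, and the axes do not start at 0.

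Both sexes showed the called changes. All 82 genes changed in the same direction in males and females, each with an unadjusted p under 0.05 in either sex, in 81 the genotypes did not overlap within either sex (3.84% of all genes tested, 652, did not), and the called decreases had medians of -0.70 in males and -0.88 in females. Since both sexes entered the fit that chose the genes, these counts are a description. The paper describes the male brains as sequenced initially and the female brains separately. Sex and any difference in collection or sequencing between those sets cannot be told apart. Of the 57 decreases 47 were larger in females and of the 25 increases 13, while among genes not called 59.3% had the larger absolute change in females. No gene passed a test of the genotype by sex term (0 called, 0%, by edgeR, smallest adjusted p 0.977), while 697 had an unadjusted p under 0.05, 7 of them among the 82 called. DESeq2 called 1 gene in that test, Cyp26b1, an enzyme that breaks down retinoic acid (difference of the log2 fold changes, female minus male, -0.56, adjusted p = 0.0024). Without female Wiz+/+ replicate 1, which leaves the brain that stood apart as the only female Wiz+/+ sample, 13 genes passed by edgeR, among them the cortical patterning genes Pax6 (0.65, adjusted p = 0.0258), Dmrta2 (0.80, adjusted p = 0.033) and Neurog2 (0.72, adjusted p = 0.0369).

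No gene within 1 Mb of Wiz was called. There were 35 tested on either side (smallest adjusted p 0.234 by edgeR, median log2 fold change 0.009), and within 5 Mb 1 of 245 was, H2-Eb2 (0.408% against 0.483% of all genes).

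Many of the decreases, and 1 of the increases, were also called in adult cerebellum. The cerebellum libraries were fitted on their own with the same test, and 839 of 15979 genes (5.25%) were called, 409 lower (2.56%) and 430 higher (2.69%). Of the 57 genes lower in brain, 54 were tested there and 28 were called lower, with none called higher, and the 28 were 13 without cerebellum Wiz+/+ replicate 3. Of the 25 higher in brain, 19 were tested and 1 was called higher, Slc43a3, with a cerebellum log2 fold change of 0.97 (adjusted p = 0.0344 by edgeR), against 2.69% of all genes, and it was not called in 5 of the 6 fits that left out 1 cerebellum. Whether the decreases and the increases differ in this was not tested.

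Wiz was lower in cerebellum too, at -0.50 against -0.61 in brain (adjusted p = 9.90e-08 by edgeR), and so was Rps4l, at -1.04 against -1.41 (adjusted p = 5.76e-04 by edgeR). The meiotic genes parted there: 4930447C04Rik had a cerebellum log2 fold change of -1.78 (adjusted p = 0.00805 by edgeR), whereas Sycp1 stood at 0.02 (adjusted p = 0.893 by edgeR) and Stag3 at 0.05 (adjusted p = 0.864 by edgeR). The protocadherin beta genes differed along the cluster. Pcdhb2, Pcdhb6, Pcdhb8, Pcdhb10, Pcdhb11, Pcdhb13, Pcdhb14 and Pcdhb15 were called lower in cerebellum as in brain, while Pcdhb16 to Pcdhb22 lay between -0.07 and 0.18 there and were not called. The split was not complete. Pcdhb5 and Pcdhb12, called in brain, were not called in cerebellum, at -0.16 and -0.30 (adjusted p = 0.424 and 0.0878 by edgeR). Csf2ra and Crlf2 were lower in both tissues, at -0.56 and -0.41 in cerebellum (adjusted p = 0.00897 and 0.0133 by edgeR). Bcan and Mmp9 were not called there, at -0.06 and 0.25 (adjusted p = 0.266 and 0.334 by edgeR). Tissue, age and sex differ together between these sets, so their parts in such differences cannot be told apart.

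**Figure D5:**
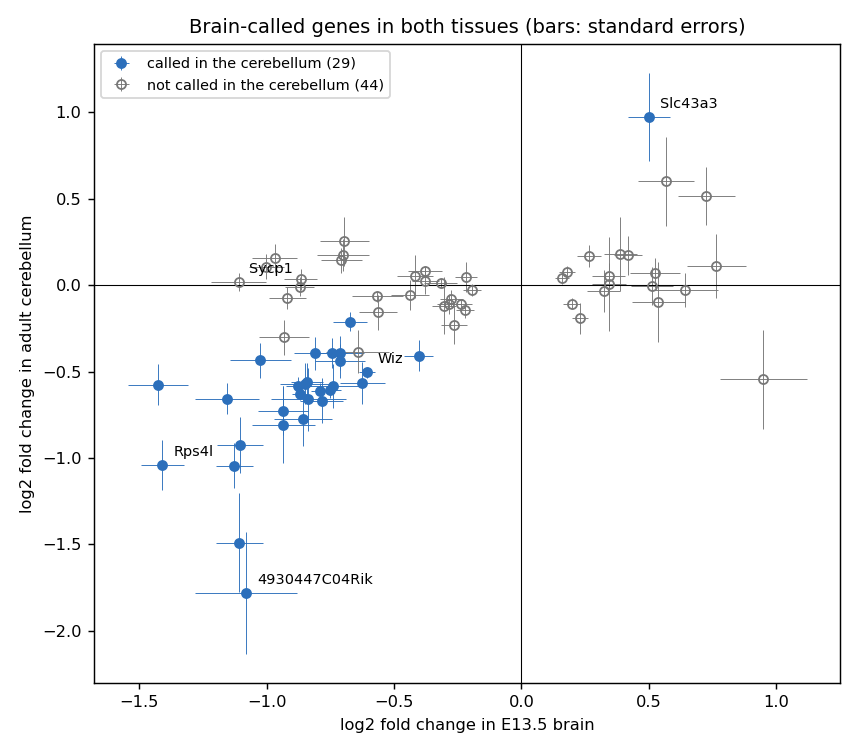
Log2 fold change (Wiz MommeD30/+ over Wiz+/+) of the 73 brain-called genes tested in both tissues, in E13.5 brain on the x axis and in adult male cerebellum on the y axis, with standard errors as bars. Filled points are the 29 genes also called in cerebellum, 28 of them lower in both tissues and 1, Slc43a3, higher in both.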

How the data were processed

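The authors sequenced polyA RNA of single E13.5 brains (TruSeq libraries, 100 bp single-end reads), mapped it to mm10 with TopHat2 2.0.11 and, per the labels, counted with HTSeq 0.6.1. What the authors deposited are unnormalised counts of reads for each Ensembl gene and sample. The counting mode and strand setting are not given in the sources used here, so reads of overlapping, antisense or near-identical genes cannot be told apart. Of 41388 gene identifiers, 40340 were found in GENCODE M21 (GRCm38), which gave symbols and positions, and the others held at most 0.171% of a library.

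From these counts, edgeR 4.0.16 in R 4.3.3 was run with TMM normalisation, the filterByExpr filter (minimum count 10) and the quasi-likelihood test, with sex as a covariate and Benjamini-Hochberg adjustment over all genes tested. Standard errors came from the fold change and the F statistic. The summed levels of gene lists are CPM scaled by total counts alone. Counts of replicates varied beyond sampling (chi-square over its degrees of freedom 3.37 to 11.3), so no library was taken as a duplicate. Depth sets the error of genes with few reads, such as Akr1cl.

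The named genes were Wiz, the 15 lower and the 15 higher called genes with the smallest p, the 8 lower and 8 higher with the largest change, and in each list up to 4 called members or, with none called, up to 2 members with the smallest p. Of the genes so named, 1 is not reported here. Other genes were picked after their values were seen. The gene lists and the comparisons were chosen with earlier results of these data known. Promoter sequences are those of RefSeq (GRCm38.p6). Alternatives were DESeq2 1.42.0, limma 3.58.1 with voom and sample quality weights, other size factors, other filters, no sex covariate, a replicate block, each sex alone and leaving out each brain. Scripts were tested on simulated counts. The ChIP samples were not used here.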

Additional observations from a re-analysis of the deposited data

Results flagged for a closer look

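Each group of 5 brains was searched, for every gene named in the text and every summed gene list, for a highest or lowest brain whose gap to the next, divided by the range of the group, was above Dixon's critical value. Of 296 groups 13 passed, 9 of Wiz MommeD30/+ and 4 of Wiz+/+ brains, and chance flags about 1 in 20 groups.

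Female Wiz MommeD30/+ replicate 1 was the brain that stood apart in 7 of the 13. Its summed level of cartilage and bone genes was 290.7 CPM with the other 4 heterozygous brains between 234 and 241 CPM (gap over range 0.885), and of epidermis genes 22.7 CPM with the others between 10.8 and 12.99 (0.818). Heat shock genes (0.722), cytosolic ribosomal protein genes (0.857) and nuclear genes of oxidative phosphorylation (0.777) were also highest in that brain, at 2806, 22630 and 7009 CPM. Among single genes it stood apart for Kcne1l, at 14.2 CPM (0.72), and for Lipo4, at 0.458 CPM (0.823).

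The other 6 groups lay apart in different brains. Pcdhb21 was apart in male Wiz+/+ replicate 2, at 10.2 CPM (0.754), and in male Wiz MommeD30/+ replicate 1, at 10.1 CPM (0.862), while Pcdhb20 was apart in female Wiz+/+ replicate 2, at 21.6 CPM (0.732). Lipo4 was lowest in the shallow male Wiz+/+ replicate 2, at 5 counts (0.832). Gm26804 was apart in male Wiz+/+ replicate 1, at 5.24 CPM (0.739), and Ltf in male Wiz MommeD30/+ replicate 3, at 0.117 CPM (0.802).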

How the results depend on the processing

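All 82 called genes kept their direction in every setting in which they were tested. The number called (82, 57 lower and 25 higher) was 187 (130 and 57) by DESeq2, 110 (72 and 38) by limma-voom with quality weights, 217 (150 and 67) without a filter on low counts, 54 (44 and 10) without the sex covariate, 33 (28 and 5) in male brains alone and 19 (19 and 0) in female brains alone. With each brain left out in turn it lay between 50 and 99, with 41 to 76 lower and 9 to 24 higher. The lowest numbers were those without male Wiz+/+ replicate 1, and 48 genes were called in all 10 of these fits, 41 lower and 7 higher. With the study's fold limits, 101 genes were called without a filter, 31 in male brains (28 lower and 3 higher) and 19 in female brains (19 and 0). The increases past those limits (17) were 38 without a filter, 11 with a mean count of at least 50, 10 without the sex covariate, and 7 to 18 with each brain left out. Lists with a called member (10) were 25 by DESeq2, 26 without a filter and 4 in female brains. The genotype by sex test called 1 gene by DESeq2 and 1 without a filter, and 0 to 13 with each brain left out, the 13 without female Wiz+/+ replicate 1. The genes called in the same direction in cerebellum (29, 28 lower and 1 higher) fell to 13, all lower, without cerebellum Wiz+/+ replicate 3 and to 19 without cerebellum Wiz MommeD30/+ replicate 1 (13 to 26 over all 6 such fits), and the 1 increase was 2 without a filter and 0 to 1 in those fits. The cause of these differences was not tested.

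Brains of both genotypes share replicate numbers, and residuals of same-numbered brains correlated at -0.121 to -0.032 (5 pairs). With 2 female brains per genotype, the female values are equal by construction (-0.0581). The labels do not say whether the numbers pair the brains, and these values cannot decide it. With a replicate block 57 genes were called, 46 lower and 11 higher, and 9 increases were past the fold limits. Depth limits the low genes: a filter removed 6 of the 82 genes at a mean count of 50, and the 2 or 3 Akr1cl counts of single Wiz+/+ brains make its fold change imprecise. The median standard error of 0.055 bounds what could be called among small shifts.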

Other observations

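Some of the largest fitted changes belonged to genes that were not called, and they were picked here after their values were seen. Alb, the albumin gene of liver, had 23.6, 36.9 and 16.1 CPM in males and 0.04203 and 0.0226 CPM in females in Wiz+/+, and 5.24, 2.84 and 20.8 CPM in males and 0.0436 and 0.0216 CPM in females in Wiz MommeD30/+. It was thus found in all 6 male brains and at no more than 0.0436 CPM in the 4 female ones. Apoa2, a lipoprotein of liver, and Serpina3k, a liver serpin, were highest in male Wiz+/+ replicate 2, and ranged over the male brains at 0.245 to 2.21 CPM and 0.343 to 4.17 CPM, and no read of either was counted in a female brain. Fitted over all brains, Alb differed by -1.39 between genotypes (adjusted p = 0.300 by edgeR), with male Wiz MommeD30/+ replicate 3 inside the range of the male Wiz+/+ brains. Liver genes were not among the marker lists.

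Hoxc8, a Hox gene of trunk segments, had 8.21, 0.123 and 2.099 CPM in males and 0.06304 and 21.9 CPM in females in Wiz+/+, and 0.0248, 1.88 and 0.0293 CPM in males and 0.545 and 0.647 CPM in females in Wiz MommeD30/+. Female Wiz+/+ replicate 2 held the highest level, as it did of the summed Hox list, and male Wiz+/+ replicate 1 came next. Hoxa9 followed the same 2 brains, at 3.39 and 1.095 CPM, with the other 8 between 0.0585 and 0.758 CPM. Their fitted log2 fold changes of -3.35 and -2.18 were the lowest of all genes tested, with standard errors of 1.06 and 0.737 and adjusted p of 0.235 and 0.274 by edgeR.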
